A study of Mus musculus with 8 samples.

Results

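YAP, TAZ and the TEAD factors carry mechanical signals to the nucleus, and 10 genes of this axis were followed in sorted mouse hepatic stellate cells, the retinoid-storing pericytes of the liver sinusoid. The 10 genes are the cofactors Yap1 and Wwtr1 (which encodes TAZ), the factors Tead1 and Tead3, the inhibitors Lats2 and Amotl2, the target genes Ankrd1, Ccn1 and Ccn2, and the LIM-only gene Fhl2. The first 9 were taken for their place in the pathway. Fhl2 was selected on its measured log2 difference between the same reverted and quiescent arrays, so that difference is a description with no test. All 10 were measured, out of 19938 genes with a probe set of their own. Quiescent cells (4 arrays) came from untreated male Balb/c mice. Reverted cells (4 arrays) came from male Balb/c mice given 4 injections of the hepatotoxin carbon tetrachloride (CCl4) at 0.5 µl per g body weight, 2 each week, and left to rest for 45 days. The labels put the age of both groups at 18 weeks in their general statement and that of the CCl4 mice at 16 weeks in the group's own statement. Whether each array came from a separate animal or from pooled animals is not labelled, and p-values therefore speak only of the spread among these samples, which could be technical. In both groups the cells were sorted on retinoid autofluorescence and lysed without culture, a sort that selects cells holding retinoid. The question was whether genes of this axis still differ after the injury has resolved. Values are log2 levels made with the RMA method, n = 4 arrays per group throughout, and changes are reverted minus quiescent.

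In the Hippo pathway, the LATS kinases phosphorylate YAP and TAZ, which then stay out of the nucleus. On stiff matrix or in spread cells the cofactors enter the nucleus, bind TEAD factors and switch on target genes, among them Ccn1, Ccn2 and Ankrd1, and their own inhibitors Lats2 and Amotl2. In stellate cells this axis is known for its part in the activation that turns the cells into myofibroblasts. FHL2 is a LIM-only adaptor found at focal adhesions and in the nucleus, and its gene is a known target of serum response factor (SRF), the other main route from actin tension to transcription. Much of YAP regulation takes place on the protein, which the arrays did not measure.

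The promoters of Ankrd1, Ccn1 and Amotl2 are shown as examples that hold the TEAD motif, and that of Fhl2 as the one that holds the SRF motif instead. RefSeq windows of GRCm38.p6, with 250 bases before and 50 after a start, were found for 8 of the 10 genes and scanned for CATTCC, the core of the TEAD site, on both strands. At least 1 window of 7 of these 8 genes held it (Yap1, Wwtr1, Tead3, Lats2, Amotl2, Ankrd1 and Ccn1), against 15.1% of all measured genes and 14.7% of all 32851 windows. Genes with several start sites had several chances to match, and the overlapping windows of Wwtr1 share their match. The SRF site known as the CArG box, in its full consensus and its own reverse complement as a class, was searched after the sequences had been seen. It occurred in both windows of Fhl2, in no window of the other 7 genes and in 1.63% of all windows. The 250 bases before the start follow, 5′ to 3′ on the gene's strand, with TEAD letters in capitals for Ankrd1, Ccn1 and Amotl2 and the CArG box in capitals for Fhl2.
Ankrd1 (chr19:36119845-36120094, minus strand): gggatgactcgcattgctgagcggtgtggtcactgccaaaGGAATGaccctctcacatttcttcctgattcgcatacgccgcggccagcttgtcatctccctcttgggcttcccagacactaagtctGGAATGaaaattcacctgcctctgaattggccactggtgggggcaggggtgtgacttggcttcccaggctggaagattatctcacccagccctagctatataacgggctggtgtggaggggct
Ccn1 (chr3:145649986-145650235, minus strand): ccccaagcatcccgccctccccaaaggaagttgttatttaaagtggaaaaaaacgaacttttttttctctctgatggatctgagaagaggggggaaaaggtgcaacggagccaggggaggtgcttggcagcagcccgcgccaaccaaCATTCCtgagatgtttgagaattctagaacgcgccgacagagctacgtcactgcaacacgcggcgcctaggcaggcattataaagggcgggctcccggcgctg
Amotl2 (chr9:102717554-102717803, plus strand): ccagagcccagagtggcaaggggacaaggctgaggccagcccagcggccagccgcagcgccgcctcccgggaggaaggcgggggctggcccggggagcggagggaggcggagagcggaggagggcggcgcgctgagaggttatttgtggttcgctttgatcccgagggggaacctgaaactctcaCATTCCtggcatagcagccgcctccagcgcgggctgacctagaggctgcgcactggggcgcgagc
Fhl2, first start site (chr1:43196762-43197011, minus strand): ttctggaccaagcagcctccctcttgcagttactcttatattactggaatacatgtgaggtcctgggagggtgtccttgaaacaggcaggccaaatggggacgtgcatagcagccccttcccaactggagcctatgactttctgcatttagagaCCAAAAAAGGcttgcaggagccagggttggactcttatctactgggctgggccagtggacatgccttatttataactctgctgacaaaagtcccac
Fhl2, second start site (chr1:43163962-43164211, minus strand): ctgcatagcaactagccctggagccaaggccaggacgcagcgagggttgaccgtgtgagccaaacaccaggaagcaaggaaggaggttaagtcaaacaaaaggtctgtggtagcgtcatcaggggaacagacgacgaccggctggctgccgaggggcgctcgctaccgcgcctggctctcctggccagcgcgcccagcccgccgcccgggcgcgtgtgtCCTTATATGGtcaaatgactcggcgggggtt
In Ankrd1 the TEAD letters began 210 and 123 bases before the start, in Ccn1 103 and in Amotl2 65 bases before it. The CArG box of Fhl2 began 96 bases before the first and 31 bases before the second start site. The printed windows of Fhl2 and Amotl2 lie inside the annotated span of their genes. A match is a description of letters and shows no binding.

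The arrays were first compared as wholes. Array medians lay between 7.66 and 7.74 over all probe sets. In a principal component analysis quiescent array 4 lay at -0.21 on the leading component. That was between the other quiescent arrays (-13.98 to -8.79) and the reverted arrays (6.07 to 11.51). The changes of some genes are therefore also given without quiescent array 4. Stellate markers were present throughout: Lrat, which esterifies retinol, stood at a mean of 14.05 in quiescent and 14.04 in reverted cells. The mean of each of the 10 stellate markers was lower in the reverted group (median log2 change -0.03), and their mean per array ran from 13.10 to 13.19 in quiescent and from 13.02 to 13.08 in reverted cells, which do not overlap. Of these 10 only Gfap, an intermediate filament gene, passed and fell, where 0.712% of all genes passed. The log2 change of Gfap was -0.49 (adjusted p = 0.0182 in limma, 0.241 with the variance of each gene taken alone, which called 0 of all genes). Groups were apart in 2 of the 10, beside 8.73% of all genes. These were Gfap and Ngfr, which had a change of -0.20 (adjusted p = 0.176 in limma). By mean level Gfap stood above 62.3% of genes. Every other stellate marker stood above at least 96.5%, where a difference can be compressed. All 12 hepatocyte markers had a higher mean in the reverted group, with a median log2 change of 0.43. None of the 12 passed limma and 6 had an unadjusted p under 0.05, as did 16.0% of all genes. The mean of these markers per array ran from 8.20 to 9.24 in quiescent and from 8.90 to 9.43 in reverted cells, which overlap. In such bulk samples fewer cells of a type and less RNA per cell cannot be told apart. Of the 10 sinusoidal endothelial markers 9 were higher on average in the reverted group (median log2 change 0.22). None of the 10 passed and 2 had an unadjusted p under 0.05 (16.0% of all genes). The largest change was that of Clec4g, a lectin gene of these cells (0.50), and the list mean ran from 8.05 to 8.45 in quiescent and from 8.23 to 8.83 in reverted cells, which overlap. The part of these shifts in the results on the 10 genes was tested only for the hepatocyte markers, as a covariate. Of the 6 smooth muscle markers, 10 macrophage markers and 10 portal fibroblast or mesothelial markers none passed, with median changes of -0.04, -0.03 and -0.08, and none of the 4 cholangiocyte and 7 lymphocyte markers did, with medians of -0.06 and -0.04.

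**Figure D1:**
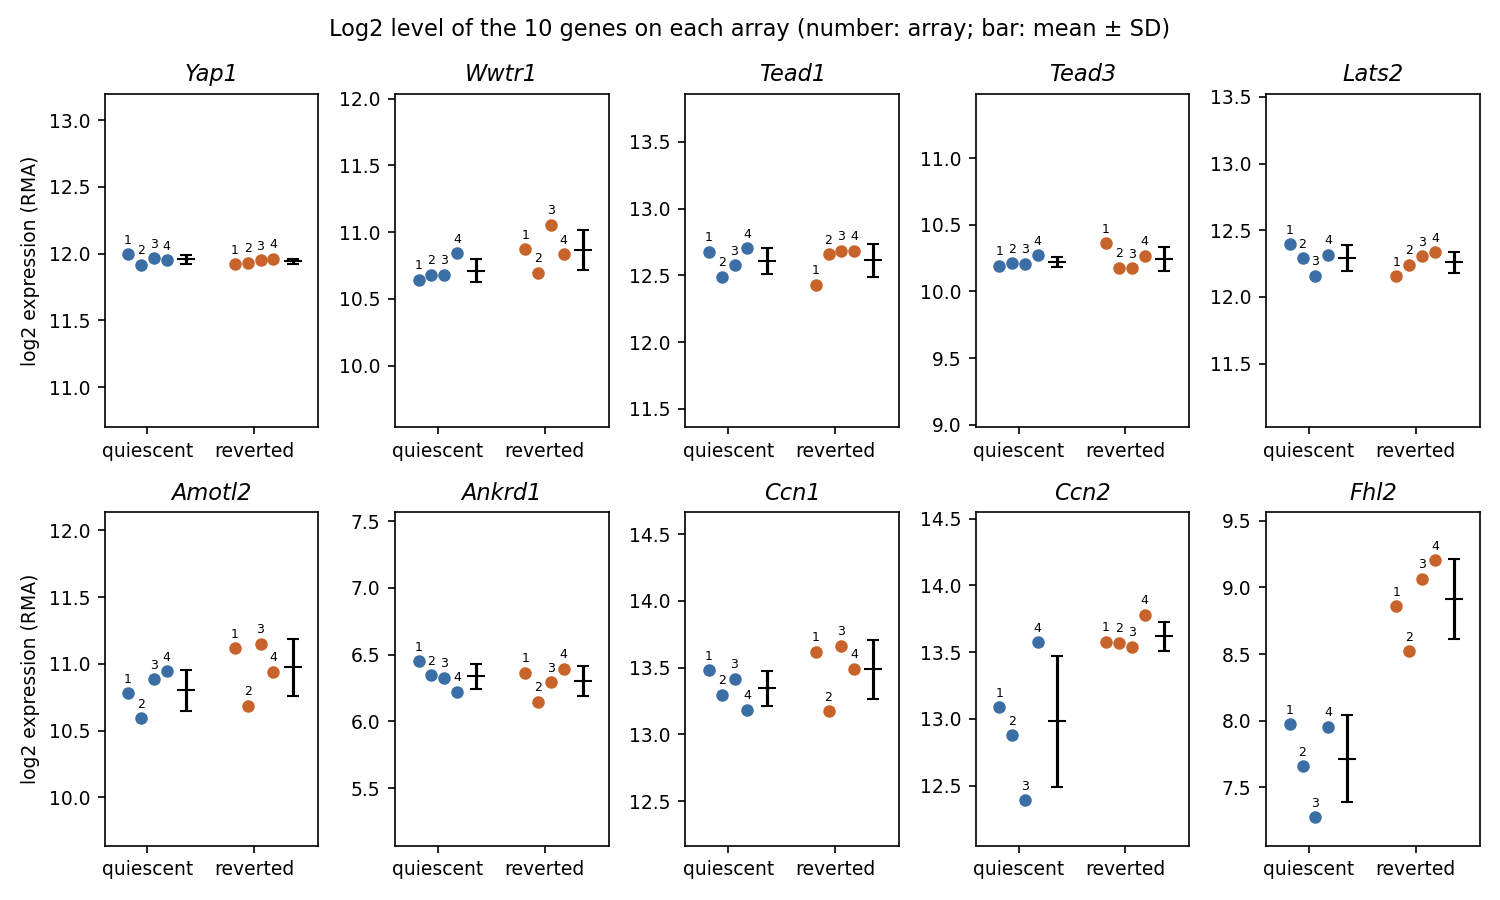
Log2 level (RMA) of each of the 10 genes on each array, with quiescent arrays in blue and reverted arrays in orange, array numbers above the points and the mean ± SD as a bar; every panel spans the same 2.5 log2 units. The 4 reverted arrays lie above the 4 quiescent arrays for Fhl2 alone, Ccn2 is spread out in quiescent and tight in reverted cells, and Yap1 is nearly level.

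None of the 9 pathway genes passed the test. In limma with Benjamini-Hochberg adjustment over 19938 genes, 0 of 9 had an adjusted p under 0.05, where 0.712% of all genes did. At an unadjusted p under 0.05 the count was 1 of 9, namely Ccn2, against 16.0% of all genes, and a test with the variance of each gene taken alone called 0 of the 9 and 0 of all genes. The mean was higher in reverted cells for 6 of the 9 and lower for 3, and their median change was 0.02, against -0.01 over all genes. The groups overlapped in each of the 9. In Fhl2 they were apart, a separation shown by 8.73% of all genes (4.64% with the reverted arrays above), from which nothing is read for a gene selected on its rise.

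The cofactor Yap1 was the steadiest of the 10 genes. Its log2 levels were 12.00, 11.92, 11.97 and 11.95 on quiescent arrays 1 to 4 and 11.92, 11.93, 11.95 and 11.96 on reverted arrays 1 to 4. The reverted arrays all fell within the quiescent range. The log2 change of Yap1 was -0.02 (SE 0.03), and the 95% interval of its fold change ran from 0.937 to 1.04 (limma, adjusted p = 0.838). Its pooled SD within groups was 0.026, against a median of 0.081 over all genes, and 1.86% of genes had a smaller one.

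Wwtr1, which encodes the YAP paralog TAZ, stood at 10.64, 10.68, 10.68 and 10.84 in quiescent and at 10.87, 10.70, 11.06 and 10.84 in reverted cells. Quiescent array 4 lay above reverted arrays 2 and 4, and the other quiescent arrays lay below all reverted ones. The log2 change of Wwtr1 was 0.15 (SE 0.08, adjusted p = 0.357 in limma), with a fold interval of 0.987 to 1.25. Without reverted array 3 the change of Wwtr1 was 0.09.

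Among the DNA-binding partners, neither TEAD gene differed beyond its spread. Tead1 stood at 12.68, 12.49, 12.58 and 12.70 in quiescent and at 12.43, 12.66, 12.68 and 12.68 in reverted cells. Reverted array 1 was lower than all other arrays for this gene, and the other reverted arrays lay inside the quiescent range. The log2 change of Tead1 was 0.00 (SE 0.07, adjusted p = 0.985 in limma), and its second probe set, not used in the fit, gave -0.01. On that probe set too, reverted array 1 was the lowest of the 8, at 12.14. Tead3 ran from 10.19 to 10.27 in quiescent and from 10.17 to 10.36 in reverted cells, and its log2 change was 0.02 (SE 0.05, limma adjusted p = 0.823). The fold intervals were 0.898 to 1.12 for Tead1 and 0.942 to 1.10 for Tead3.

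The inhibitors restrain the cofactors: LATS2 is the kinase that phosphorylates YAP and TAZ, and AMOTL2 is an angiomotin that holds YAP at junctions and actin. Lats2 stood at 12.39, 12.29, 12.16 and 12.32 in quiescent and at 12.16, 12.24, 12.30 and 12.33 in reverted cells. The groups overlapped over most of their range, and the log2 change was -0.03 (SE 0.06, limma adjusted p = 0.822) and a fold interval of 0.893 to 1.08. Amotl2 stood at 10.78, 10.59, 10.89 and 10.95 in quiescent and at 11.12, 10.69, 11.15 and 10.94 in reverted cells. Reverted arrays 1 and 3 were above every quiescent array, while reverted array 2 was below 3 of them. The log2 change of Amotl2 was 0.17 (SE 0.11, adjusted p = 0.456 in limma), with a fold interval of 0.949 to 1.34. Single arrays moved it, to 0.27 without reverted array 2 and to 0.10 and 0.11 without quiescent array 2 or reverted array 3.

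Of the target genes, Ccn2 had the largest change. Ccn2, which encodes connective tissue growth factor, a secreted matricellular protein of fibrotic tissue, stood at 13.09, 12.88, 12.39 and 13.57 on quiescent arrays 1 to 4. In reverted cells Ccn2 stood at 13.58, 13.57, 13.54 and 13.78. Quiescent array 4 alone reached the reverted level, overlapping the lowest reverted array by 0.03. The mean was 12.98 ± 0.49 (SD, n = 4) in quiescent and 13.62 ± 0.11 (SD, n = 4) in reverted cells, so the SD was 4.48 times as large in quiescent cells, a difference in spread that was not tested. The log2 change of Ccn2 was 0.64 (SE 0.20), or 1.55-fold with an interval of 1.13 to 2.14, and did not pass (adjusted p = 0.195 in limma; unadjusted p = 0.0121, smaller in 6.22% of genes). Without quiescent array 4 the change was 0.83 and passed (limma adjusted p = 0.0459, with 1.24% of all genes called). Without quiescent array 3 it was 0.44 (adjusted p = 0.217). These are the highest and the lowest quiescent array for Ccn2, so leaving them out had to raise and to lower the change. With the mean of the hepatocyte markers as a covariate the change was 0.93 (adjusted p = 0.116).

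Ccn1, the related matricellular gene once named Cyr61, stood at 13.48, 13.30, 13.42 and 13.18 in quiescent and at 13.62, 13.18, 13.66 and 13.49 in reverted cells. Reverted arrays 1, 3 and 4 lay above all quiescent arrays, and reverted array 2 lay just below all of them. The log2 change of Ccn1 was 0.14 (SE 0.11, adjusted p = 0.524 in limma), with a fold interval of 0.933 to 1.31. It was 0.25 without reverted array 2, 0.08 without reverted array 3 and 0.09 without quiescent array 4, and the hepatocyte marker mean as a covariate took it to 0.05. Ankrd1, an ankyrin repeat protein of stretched muscle, stood at 6.45, 6.35, 6.33 and 6.22 in quiescent and at 6.36, 6.15, 6.30 and 6.40 in reverted cells. Its log2 change was -0.04 (SE 0.07, adjusted p = 0.805 in limma), with a fold interval of 0.879 to 1.08. Ankrd1 sat low on the scale, with 20.8% of genes below its mean level, and Ccn1 and Ccn2 near the top (99.3% and 99.1%), positions at which a difference can be compressed.

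**Figure D2:**
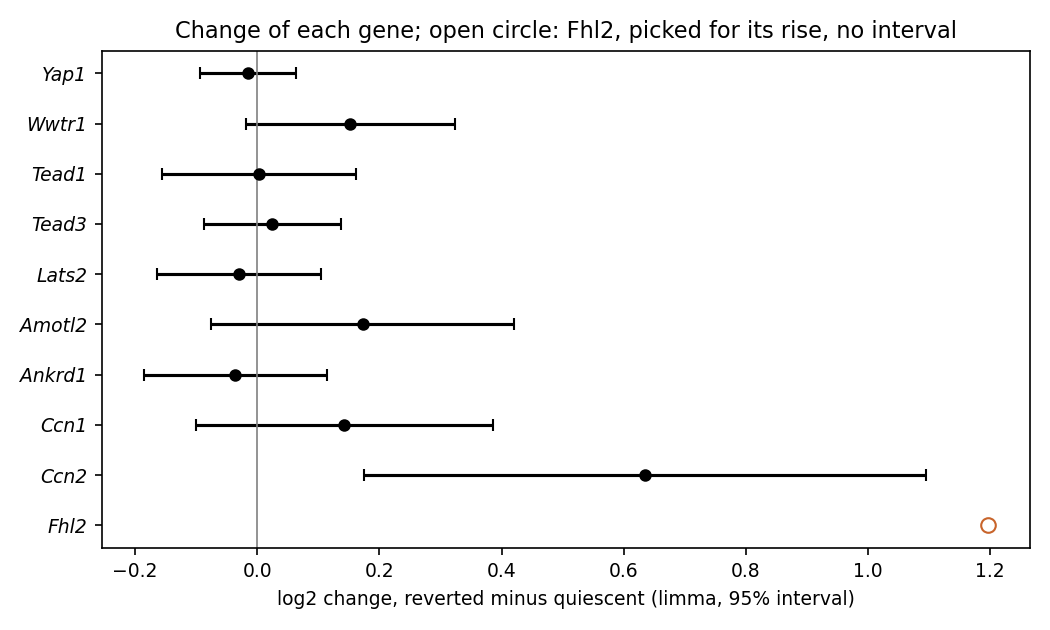
Log2 change (reverted minus quiescent) of each gene, with the 95% interval from limma as a bar; Fhl2, picked for its rise, is an open circle without an interval. The intervals of 8 of the 9 tested genes include 0, that of Ccn2 runs from 0.17 to 1.10 before any adjustment, and Fhl2 lies at 1.20.

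Fhl2 was higher in every reverted array. It stood at 7.97, 7.66, 7.28 and 7.95 on quiescent arrays 1 to 4 and at 8.86, 8.52, 9.07 and 9.20 on reverted arrays 1 to 4. The lowest reverted array was 0.55 above the highest quiescent array. The mean was 7.72 ± 0.33 (SD, n = 4) in quiescent and 8.91 ± 0.30 (SD, n = 4) in reverted cells, a log2 difference of 1.20 or 2.29-fold. This difference ranked 14 of 19938 genes, the property for which the gene was picked. Leaving out each array in turn kept it between 1.05 and 1.33, and without quiescent array 4 it was 1.28. As covariates, the hepatocyte marker mean gave 1.31 and the mean of the immediate early genes 1.05. All of these values come from the arrays on which Fhl2 was picked. They describe its difference and lend it no support.

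Relatives of the 10 genes were read beside them, named because they are paralogs and not for their values. Of 15 paralogs none passed in limma or with gene-wise variance, and 2 had an unadjusted p under 0.05 (16.0% of all genes), with log2 changes from -0.18 to 0.39 and a median of 0.00. Among the LIM-only genes, Fhl1, a muscle relative of Fhl2, was level at a mean of 13.30 in both groups (log2 change 0.01). Fhl3 stood at 9.72, 9.79, 9.38 and 9.54 in quiescent and at 9.83, 9.41, 10.44 and 10.30 in reverted cells, with 3 reverted arrays above all quiescent ones and a change of 0.39 (adjusted p = 0.38 in limma). Fhl5 and Fhl4 had changes of 0.00 and -0.09. Of the other TEAD genes, Tead2 had a change of -0.14 and Tead4 of 0.10, and the second LATS kinase gene, Lats1, was level at 11.75 and 11.76. The angiomotin genes Amot and Amotl1 had changes of 0.11 and 0.05. The CCN genes Ccn5 and Ccn6 were those with an unadjusted p under 0.05, with changes of -0.16 (adjusted p = 0.257) and -0.18 (adjusted p = 0.154 in limma), while Ccn3 and Ccn4 stood at -0.04 and 0.19.

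The wider pathway was read from 6 lists with 111 measured genes, of which 1 passed in limma (0.901%, against 0.712% of all genes) and none with gene-wise variance. That gene was Csrp2, which encodes a LIM protein of smooth muscle and of activated stellate cells and belongs to the list of LIM-only, CCN and Ankrd relatives (1 of 13 higher, none lower, median change 0.00). Csrp2 stood at 10.32, 10.49, 10.09 and 10.42 in quiescent and at 10.77, 10.87, 10.94 and 10.91 in reverted cells. All reverted arrays were above all quiescent arrays, and the log2 change was 0.54 (SE 0.08, adjusted p = 0.023 in limma). The call was lost without quiescent array 1 (adjusted p = 0.0728) or reverted array 2 (0.0651), 3 (0.0924) or 4 (0.0861). The log2 changes there were 0.54, 0.55, 0.52 and 0.53, while calls over all genes went from 142 to 73, 99, 59 and 54. Adding the hepatocyte marker mean (0.0956) or the mean of the immediate early genes (0.0526) as a covariate also ended the call. The log2 changes of Csrp2 were then 0.56 and 0.51, with 41 and 83 of all genes called. Gene-wise variance gave an adjusted p of 0.305 but called 0 of all genes, so that loss says nothing particular about Csrp2.

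Of 24 Hippo kinases, adaptors and TEAD cofactors none passed in limma or with gene-wise variance, 5 were higher and 1 lower at an unadjusted p under 0.05 (16.0% of all genes passed that limit), and the median change was 0.05. The kinase gene Stk4 (MST1), which activates the LATS kinases, stood between 10.22 and 10.26 in quiescent and between 10.35 and 10.49 in reverted cells, a log2 change of 0.17 (adjusted p = 0.114). The protocadherin gene Dchs1, whose product binds the Fat4 receptor, had a change of -0.49 (adjusted p = 0.127), with all reverted arrays below all quiescent arrays, while Fat4 itself had a change of 0.21 (adjusted p = 0.154). Taok3, a kinase upstream of the pathway, had a change of 0.20 (adjusted p = 0.141). Groups were apart in 4 of the 24 genes, beside 8.73% of all genes. Vgll3, a TEAD cofactor outside the naming rule, had a change of 0.41 (adjusted p = 0.168 in limma) and is named because it passed without reverted array 2 (0.53, adjusted p = 0.0491).

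Of 17 further target genes of YAP and TAZ none passed in limma or with gene-wise variance, 5 were higher and 1 lower at an unadjusted p under 0.05 (16.0% of all genes), the mean was higher in 8 and lower in 9, and the median change was -0.01. The growth factor gene Tgfb2 had the smallest p of the list, with values from 7.70 to 8.43 in quiescent and from 8.57 to 9.11 in reverted cells and a change of 0.70 (adjusted p = 0.123). F3, which encodes tissue factor, had a change of 0.37 (adjusted p = 0.133) and passed without quiescent array 4 (0.45, adjusted p = 0.0478). The secreted protein gene Ccdc80 and the receptor kinase gene Axl had changes of 0.19 and 0.17 (adjusted p = 0.15 and 0.17). Groups were apart in 3 of the 17, beside 8.73% of all genes.

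Of 16 genes of SRF, its MRTF cofactors and their targets, none passed in limma or with gene-wise variance, 3 were higher and 1 lower at an unadjusted p under 0.05 (16.0% of all genes), and the median change was 0.04. Acta2, the smooth muscle actin gene, had a change of 0.50 (adjusted p = 0.188) with overlapping groups. Tagln, which encodes transgelin, stood at 10.20, 9.72, 10.39 and 10.93 in quiescent and at 10.66, 10.58, 11.28 and 11.36 in reverted cells, a change of 0.66 (adjusted p = 0.272). Mrtfa, which encodes the actin-sensing cofactor, had a change of 0.16 (adjusted p = 0.197), and Cnn1, a smooth muscle calponin gene, of -0.09 (adjusted p = 0.285). Of the 6 smooth muscle markers 4 are also on this list.

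Focal adhesions join the actin cytoskeleton to the matrix through integrins. Of 23 focal adhesion genes none passed in limma or with gene-wise variance, and the median change was -0.01. At an unadjusted p under 0.05 there was 1 higher and 1 lower, where 16.0% of all genes passed that limit. The talin gene Tln2 had a change of -0.15 (adjusted p = 0.185), the actin-binding gene Nexn of 0.25 (0.311), and the integrin genes Itga8 and Itgb1 of 0.11 (0.344) and 0.09 (0.346).

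**Figure D3:**
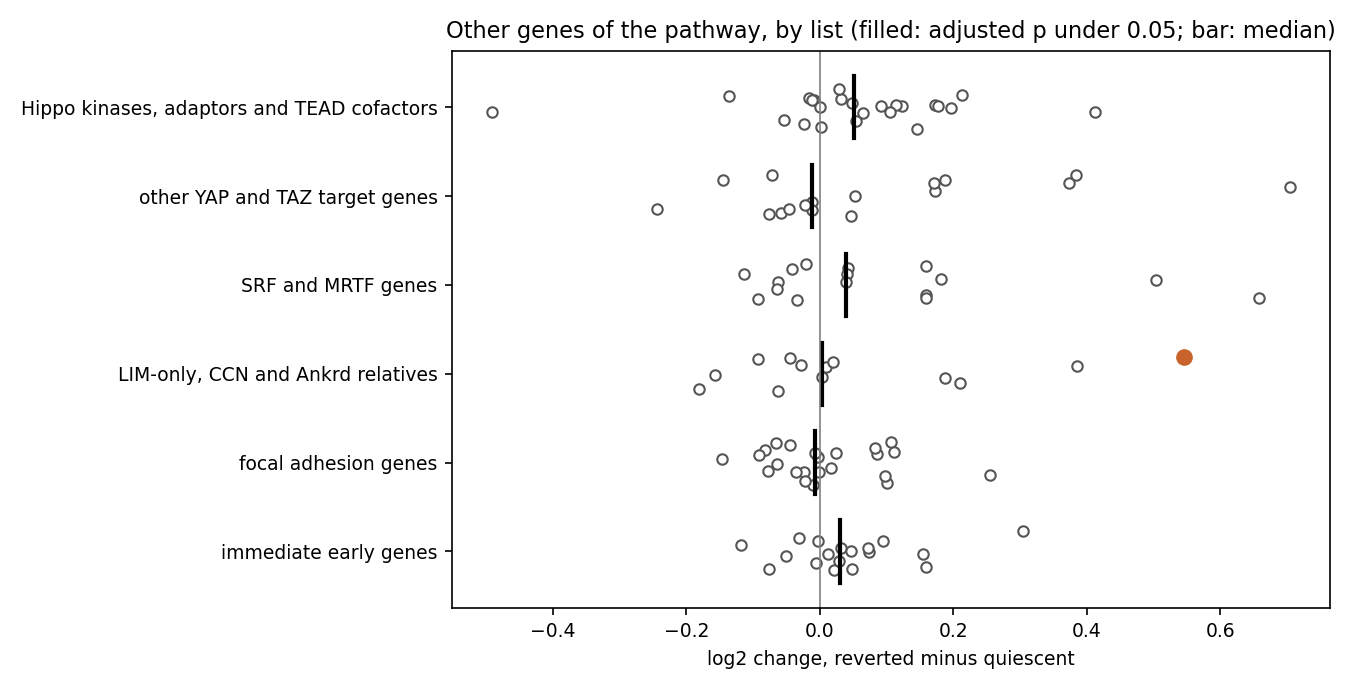
Log2 change (reverted minus quiescent) of every measured gene of the 6 pathway lists, 1 point per gene, with the median of each list as a bar and genes with an adjusted p under 0.05 filled. Csrp2 at 0.54 is the only filled point, and the list medians lie between -0.01 and 0.05.

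Ccn1 and Ccn2 are also known as genes that serum or stress induces within minutes, so the variation of the target genes within groups was set beside that of 18 immediate early genes such as Fos, Egr1 and Atf3. None of the 18 passed in limma or with gene-wise variance. At an unadjusted p under 0.05, a limit passed by 16.0% of all genes, 1 was higher, Klf6 (0.30, adjusted p = 0.141). The list median was 0.03, and the list mean per array ran from 12.72 to 12.93 in quiescent and from 12.84 to 12.92 in reverted cells. By mean level Fos, Egr1 and Atf3 stood above 99.4%, 99.7% and 99.2% of genes, where a difference can be compressed. The pooled SD within groups was 0.04 for Fos and Egr1 and 0.22 for Klf4, so widely spread genes weigh more in the list mean. Deviations from the group means were compared over the 8 arrays in 6 relations, with 2-sided exact permutation within groups. Ccn2 went with the immediate early gene mean at r = 0.888 (permutation p = 0.0174, adjusted p = 0.104) and a Spearman coefficient of 0.952 (permutation p = 0.0139, adjusted p = 0.0834), which did not pass the adjustment. Without the 2 arrays farthest from the median of the immediate early gene mean, r was 0.807. With that mean as a covariate the log2 change of Ccn2 was 0.46 (adjusted p = 0.153 in limma).

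The relations of Ccn1 and Ankrd1 moved when the 2 farthest arrays were left out. These were the arrays farthest from the median of the first of the 2 quantities named, so they differed between relations. They were quiescent array 4 and reverted array 2 for Ccn1, and quiescent arrays 3 and 4 for Ccn2 and the immediate early mean. Ccn1 with Ccn2 gave r = -0.311 (permutation p = 0.375, adjusted p = 0.75) and a Spearman coefficient of -0.167 (permutation p = 0.7, adjusted p = 0.84), and r was 0.013 without the 2 farthest arrays. Ccn1 with Ankrd1 gave r = 0.793 (permutation p = 0.0451, adjusted p = 0.135) and a Spearman coefficient of 0.595 (permutation p = 0.167, adjusted p = 0.501), and r was 0.058 without the 2 farthest arrays, so that relation rests on them. The other relations had r of -0.13 (Ccn2 with Ankrd1), 0.073 (immediate early mean with Ccn1) and 0.234 (with Ankrd1), with permutation p between 0.632 and 0.865. Without quiescent arrays 3 and 4 these were 0.608, 0.613 and 0.77, beside 0.807 for Ccn2 with the immediate early mean. A contrast between Ccn2 and the other 2 target genes in their relation to that mean therefore rests on those arrays. Reverted array 2 was the lowest reverted array for 5 of the 10 genes (Wwtr1, Amotl2, Ankrd1, Ccn1 and Fhl2), and reverted array 3 the highest for 3 of them (Wwtr1, Amotl2 and Ccn1).

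**Figure D4:**
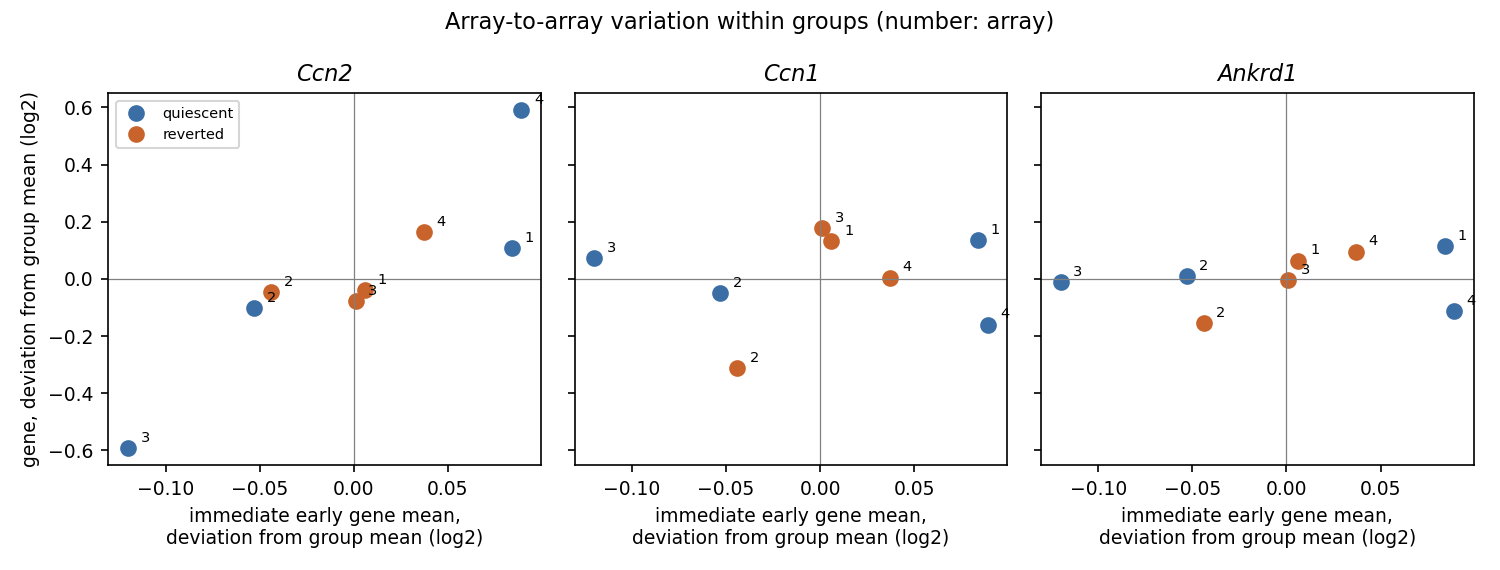
Deviation of Ccn2, Ccn1 and Ankrd1 from their group means (log2, vertical) against that of the mean of 18 immediate early genes (log2, horizontal), 1 point per array, quiescent in blue and reverted in orange with array numbers. Quiescent arrays 3 and 4 lie at the ends of the Ccn2 panel, where r = 0.888, and r is 0.073 for Ccn1 and 0.234 for Ankrd1 over all 8 arrays, or 0.807, 0.613 and 0.77 without the 2 farthest.

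The 6 named genes whose 8 values followed those of Fhl2 most closely were Ndufab1 (Pearson's r = 0.989), Olfml2b (0.985), Il17ra (0.983), S100a11 (0.979), Ugcg (0.978) and Adi1 (0.975). A gene must differ between the groups the way Fhl2 does to rank here, so these values are a description over 8 arrays. Olfml2b, which encodes a secreted olfactomedin-domain protein, ran from 7.22 to 7.53 in quiescent and from 7.97 to 8.33 in reverted cells, a log2 difference of 0.75. Il17ra, the interleukin 17 receptor gene, differed by 0.52 and Ugcg, the glucosylceramide synthase gene, by 0.30. Adi1, Ndufab1, a mitochondrial acyl carrier protein gene, and S100a11, a calcium-binding protein gene, differed by 0.13, 0.09 and 0.08.

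**Figure D5:**
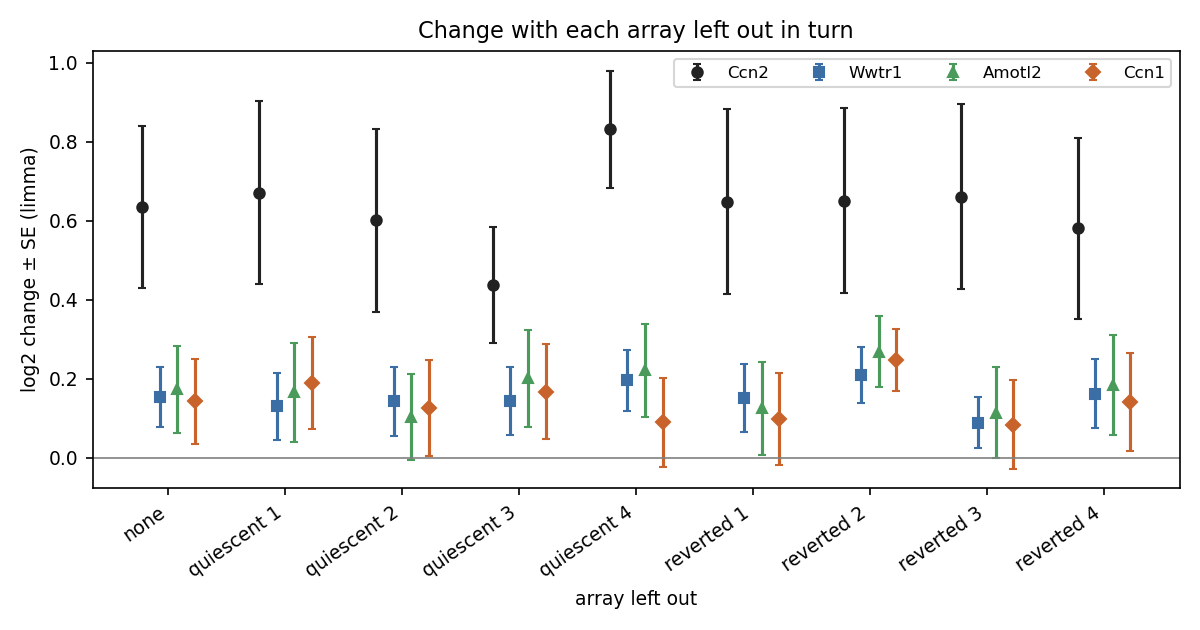
Log2 change ± SE (limma) of Ccn2, Wwtr1, Amotl2 and Ccn1 with no array left out and with each array left out in turn. All points lie above 0, those of Ccn2 run from 0.44 to 0.83, and leaving out quiescent array 4 gives the highest.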

How the data were processed

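The authors deposited log2 expression values, and RMA is the tool named, per the submitters' processing notes. As a method RMA covers background correction, normalization between arrays and a summary of each probe set. Per the labels' protocols, 150 ng RNA per sample was amplified and biotin-labelled. The settings are not given in the sources used here. A table of 35556 probe sets and 8 columns was used, with columns matched to samples by name. Symbols came from the platform annotation: 21789 probe sets have 1 symbol, 1621 several (not named from) and 12146 are unlisted. The probe set with the highest mean was kept for each of 19938 genes, with no filter on dim genes. Groups were compared with lmFit and eBayes (limma 3.58.1, R 4.3.3), 2-sided, Benjamini-Hochberg over all genes, at an adjusted p under 0.05. The number of arrays limits the precision. This fit was first tested on simulated data.

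The genes followed, the lists and the tests were chosen with earlier results of these data known. The text names the 10 genes, up to 4 genes per pathway list by smallest p, and the 6 genes most like Fhl2. A further pathway list is not reported here. Paralogs and Vgll3 were added outside this rule. Alternatives were quantile normalization, median centring, leaving out the lowest 25% or lower 50% of genes, the mean of all probe sets, a variance trend, array weights, Welch's test, the replicate block, 2 covariates and leaving out each array. Promoters and gene positions are RefSeq's (GRCm38.p6).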

Additional observations from a re-analysis of the deposited data

Results flagged for a closer look

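In 80 groups of 4 arrays (40 named genes), 4 arrays stood far from the other 3 by Dixon's ratio of gap to range at its 95% critical value. Chance gives about 1 in 20 such groups, which is about as many as were found. For Tead1, reverted array 1 stood at 12.43 against 12.66 to 12.68 on the other reverted arrays (ratio 0.894). For Ccn2, reverted array 4 stood at 13.78 against 13.54 to 13.58 (ratio 0.839). For Mrtfa, reverted array 3 stood at 10.52 against 10.39 to 10.41 (ratio 0.874). For S100a11, quiescent array 3 stood at 13.34 against 13.40 (ratio 0.913).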

How the results depend on the processing

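The 9 tested pathway genes kept a count of 0 called under all 11 settings that use every array (Ankrd1 was too dim to be tested without the lowest 25% or lower 50% of genes, which left 8), and leaving out each array gave 0 to 1 (Ccn2, without quiescent array 4). Over all genes the count was 142, and 306 with array weights, 0 with Welch's test, 41 with the hepatocyte and 83 with the immediate early gene covariate, and 54 to 247 with an array left out. Csrp2 was called in the main comparison, so its list had a count of 1, which was 0 with Welch's test, either covariate or the replicate block and 0 to 1 with an array left out. The Hippo list and the other YAP and TAZ targets had counts of 0 to 1 with an array left out, and the focal adhesion, SRF and immediate early lists stayed at 0 throughout. Over all genes same-numbered arrays did not deviate together (r = -0.148, -0.029, -0.018 and 0.081), which cannot show whether the numbers pair single genes. With the replicate block 63 genes were called. The SE under the block fell for Ccn2 (0.20 to 0.14), Amotl2 (0.11 to 0.07) and Ccn1 (0.11 to 0.08). It also fell for Fhl2 and slightly for Wwtr1, stayed level for Ankrd1 and rose for Yap1, Tead1, Tead3 and Lats2. Signs turned only where a change was near 0. For Yap1 the change was 0.0050 after median centring and 0.0012 with the hepatocyte covariate, and for Lats2 0.0197 with the latter. For Tead3 it was -0.0102 after quantile normalization and for Tead1 -0.0009 with the mean of all probe sets and -0.025 with the immediate early covariate. With the hepatocyte covariate the change of Tead1 kept its sign and was 0.1257 (SE 0.0672, adjusted p = 0.325 in limma). With an array left out the changes ran from -0.0373 to 0.0647 (Tead1), -0.0138 to 0.0484 (Tead3), -0.0733 to 0.0051 (Lats2) and -0.0739 to 0.0153 (Ankrd1). Ccn1 with Ccn2 gave r = 0.013 without its 2 farthest arrays, and Ccn2 with Ankrd1 gave 0.238 by Spearman and 0.608 without its own 2 farthest arrays. The cause of these shifts was not tested. RMA values carry no background level, so changes of dim genes such as Ankrd1 may be understated.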
